A study of Mus musculus with 12 samples.

Results

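The insulin-like growth factor (IGF) binding proteins and receptors were followed in tumorspheres of S1, a mouse gastric cancer cell line. The members were taken by gene symbol: *Igfbp2*, *Igfbp3*, *Igfbp4*, *Igfbp5*, *Igfbp6*, *Igfbp7*, *Igf1r* and *Igf2r*. Of these 8 listed genes, 7 had a row in the deposited tables of 18926 genes, 5 binding proteins and 2 receptors, and all 7 passed the filter on low counts. *Igfbp2* was not analysed here. S1 came from a tumor of the ChetPS mouse, which is heterozygous for a floxed *Cdh1* and homozygous for floxed *Trp53* and *Smad4*, so all groups share these alleles, and all carry Cas9. Knockouts were made with lentiviral guides against *Rasa1*, which codes for a GTPase-activating protein that switches off Ras, against *Nf2*, which codes for merlin, an activator of the Hippo kinases, or against both, and controls carried a non-targeting guide or the plasmid backbone. There were 3 control libraries and 3 of each knockout genotype, labelled *Rasa1*-KO, *Nf2*-KO or double-KO. By the protocol in the labels, cells were kept in RPMI1640 with serum and then seeded as single cells on low attachment plates in serum-free medium with EGF and insulin-containing supplements, although the labels call the cells a monolayer. The legends of the study call the dots technical replications, so p-values measure the spread between libraries, which may be technical.

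IGF1 and IGF2 are secreted growth factors that are held by binding proteins outside the cell. The binding proteins carry the ligands, keep them from the receptor, or hand them over when proteases cut the complex, and several also act on matrix and cell surfaces without the ligand. IGF1R is the receptor tyrosine kinase that signals to PI3K and ERK, while IGF2R, the cation-independent mannose 6-phosphate receptor, takes up IGF2 for degradation and sorts lysosomal enzymes. None of the ligand genes *Igf1*, *Igf2*, *Ins1* and *Ins2* was analysed here, so the values describe only the binding and receiving side.

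Of the targeted genes, *Nf2* goes against the labels of 2 groups, while *Rasa1* was below control in both of them. *Nf2* had between 55.4 and 61.0 CPM (counts scaled to the size of the library) in control, between 13.2 and 14.3 in *Nf2*-KO, between 11.6 and 12.1 in labelled *Rasa1*-KO and between 56.4 and 62.6 in labelled double-KO. *Rasa1* had between 60.5 and 78.5 CPM in control, between 97.2 and 101.1 in *Nf2*-KO, between 30.4 and 34.5 in labelled *Rasa1*-KO and between 17.7 and 23.3 in labelled double-KO. The names of the deposited tables exchange these 2 groups, and the *Nf2* levels go with those names: labelled double-KO kept *Nf2* at the level of control. The groups below keep their labels, and with the labels exchanged the values of both groups change places. Total counts were between 43818139 and 96674463 per library. The control library without a number in its title and the library labelled double-KO 1 stood apart from the other libraries of their groups in several members, and they are also the 2 deepest libraries and the 2 in these groups whose tables have no number. Fits without both were chosen after the data were seen, so their p-values are not independent of that choice. Epithelial keratins were high in all libraries, with *Krt8* between 1503 and 3630 CPM, but *Cldn4*, also listed as epithelial, did not pass 0.815 CPM, and *Epcam* fell from a control mean of 64.3 CPM to 10.4 in *Nf2*-KO.

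The knockouts moved the binding proteins in different directions. *Igfbp3* rose in all 3 knockout groups, 4.53-fold to 8.92-fold against control, and *Igfbp5* fell in all 3, by 6.64 times to 77.3 times. The *Igfbp3* call in labelled double-KO depended on which libraries were fitted. *Igfbp6* rose 2.27-fold in *Nf2*-KO and 2.26-fold in labelled *Rasa1*-KO, *Igfbp4* rose 1.43-fold in labelled *Rasa1*-KO alone among the comparisons with control, and *Igf2r* rose 1.57-fold in *Nf2*-KO. Of 15 alternative fits each, the *Igfbp4* call was lost in 9. The *Igfbp6* calls were lost in 1 (*Nf2*-KO) and 2 (labelled *Rasa1*-KO), and the *Igf2r* call held in all 15. *Igfbp7* and *Igf1r* did not pass the test in any of the 6 comparisons. The values of *Igfbp7* depended on 2 libraries, and those of *Igf1r* against control moved without the unnumbered control library.

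Shares of members called are given beside those of the whole table. In labelled *Rasa1*-KO against control 4 of the 7 members were called, 57.1%, where 41.9% of all 18053 tested genes were. In *Nf2*-KO against control it was again 4 of 7, against 42.8% of all genes, and in labelled double-KO against control 2 of 7, or 28.6%, against 6.46%. Labelled *Rasa1*-KO against labelled double-KO had 3 of 7, or 42.9%, against 30.3%, *Nf2*-KO against labelled double-KO had 3 of 7 against 32.2%, and *Nf2*-KO against labelled *Rasa1*-KO had 2 of 7 against 3.66%. The median log2 fold change of the members was 0.11, 0.0030 and 0.20 in labelled *Rasa1*-KO, *Nf2*-KO and labelled double-KO against control, beside -0.08, -0.07 and -0.04 over all tested genes. The 3 comparisons share the control libraries.

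The promoters of the 4 binding proteins that passed the test against control are shown because they point in opposite directions (*Igfbp3* and *Igfbp5*) or passed the test in some groups (*Igfbp4* and *Igfbp6*). Each line is the stretch of 250 bases before a RefSeq start site in GRCm38.p6, 5′ to 3′ on the strand of the gene. RefSeq lists 2 transcripts of *Igfbp3* and 3 of *Igfbp4*, and their stretches, the ones given in the promoter table, lie inside the span of the gene, so other transcripts begin further upstream. Capitals mark a TEAD core (CATTCC), an AP-1 site (TGANTCA) or a TATA box (TATAAA), searched on both strands, and no motif overlapped another. *Igfbp3* is chr11:7213924-7214173 on the minus strand, *Igfbp4* is chr11:99040994-99041243 on the plus strand, *Igfbp5* is chr1:72874866-72875115 on the minus strand and *Igfbp6* is chr15:102143936-102144185 on the plus strand.
Igfbp3: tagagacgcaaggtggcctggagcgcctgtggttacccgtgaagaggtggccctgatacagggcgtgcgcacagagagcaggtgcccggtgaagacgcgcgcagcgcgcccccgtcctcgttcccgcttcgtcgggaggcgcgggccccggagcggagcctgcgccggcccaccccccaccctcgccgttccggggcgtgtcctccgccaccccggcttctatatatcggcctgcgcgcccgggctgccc
Igfbp4: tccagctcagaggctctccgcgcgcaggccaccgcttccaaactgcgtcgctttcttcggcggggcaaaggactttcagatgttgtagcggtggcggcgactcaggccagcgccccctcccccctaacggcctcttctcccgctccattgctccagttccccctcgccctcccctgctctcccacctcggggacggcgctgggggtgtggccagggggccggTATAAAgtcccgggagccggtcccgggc
Igfbp5: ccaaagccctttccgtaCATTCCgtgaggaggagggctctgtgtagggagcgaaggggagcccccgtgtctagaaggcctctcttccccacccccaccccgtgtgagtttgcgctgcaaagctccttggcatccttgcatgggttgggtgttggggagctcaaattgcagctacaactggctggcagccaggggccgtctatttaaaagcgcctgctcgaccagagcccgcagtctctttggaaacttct
Igfbp6: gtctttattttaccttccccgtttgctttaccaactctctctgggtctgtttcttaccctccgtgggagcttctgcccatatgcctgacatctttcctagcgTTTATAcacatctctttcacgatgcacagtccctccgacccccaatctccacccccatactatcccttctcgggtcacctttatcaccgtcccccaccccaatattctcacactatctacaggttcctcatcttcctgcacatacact

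In windows of 300 bases, which add 50 bases after the start, the *Igfbp5* window held 1 TEAD core, which begins 233 bases before the start, and it was the only member window with one. TEAD proteins are the DNA-binding partners of YAP and TAZ, and 14.7% of all 32851 windows in the table held this core. The *Igfbp4* window held a TATA box that begins 28 bases before the start, and the *Igfbp6* window held the same letters on the other strand 148 bases before the start, against 13.6% of all windows. An AP-1 site was in 7.81% of all windows and in none of the 7 measured members. The *Igfbp3* window had none of the 3 motifs. It was 71.7% GC with 37 CG dinucleotides, against a median of 52.7% and 7 over all windows, whereas *Igfbp5* had 56.3% and 10 and *Igfbp6* had 49.7% and 8. These matches are descriptions of letters and not measured binding sites.

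**Figure D1:**
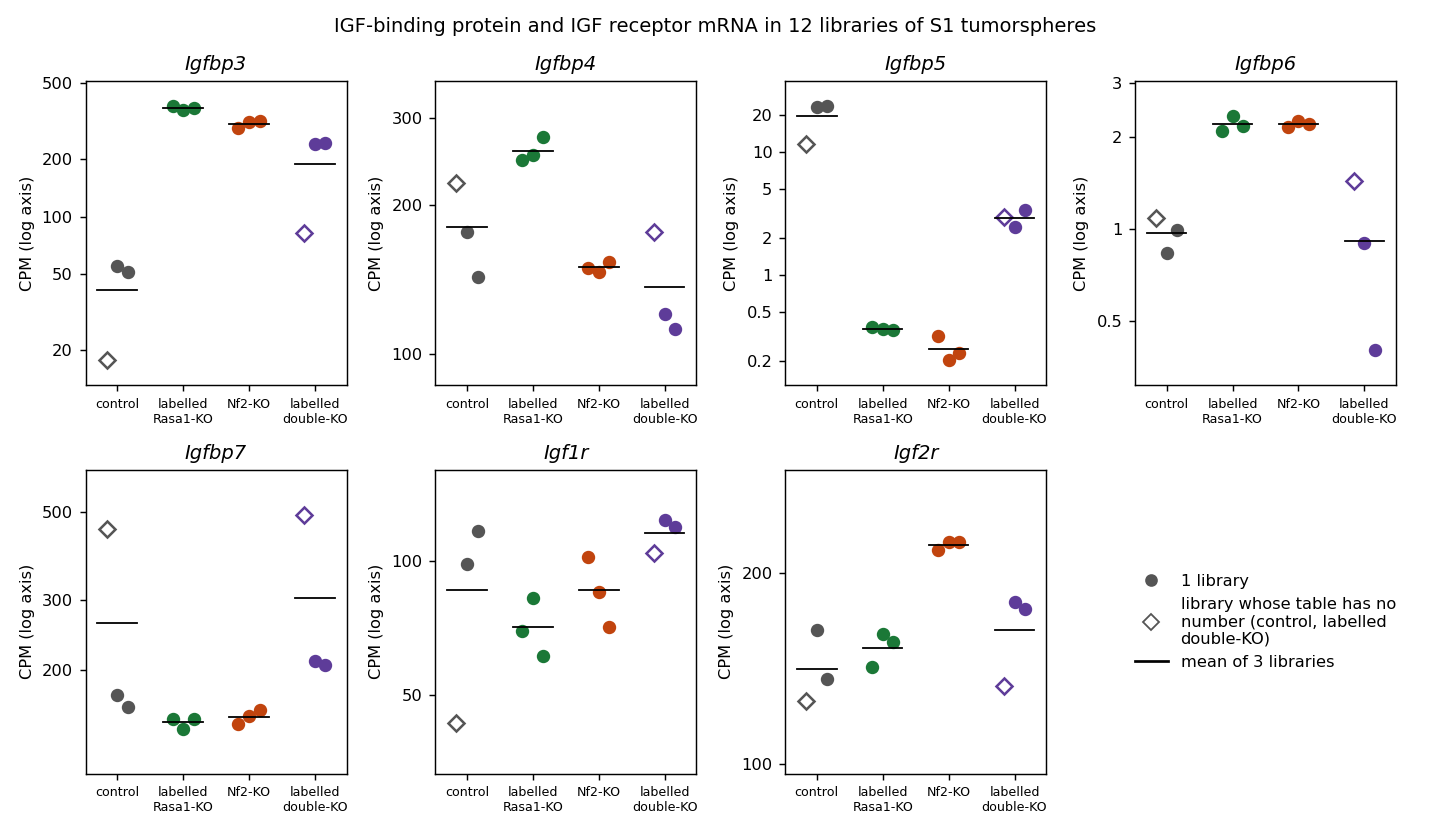
CPM of the 7 measured members (log axis, 1 panel per gene) in the 3 libraries of each group, with the group mean as a line and open diamonds for the control and labelled double-KO libraries whose tables have no number. *Igfbp3* lies above control in every knockout library and *Igfbp5* below it, while the diamonds stand highest in *Igfbp7* and lowest in *Igfbp3* within their groups.

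*Igfbp3* (Entrez gene 16009, chr11:7206086-7215498, minus strand) codes for the main IGF carrier of serum, which joins IGF and the acid-labile subunit in a ternary complex. The 3 control libraries had 17.8, 55.1 and 51.5 CPM, the unnumbered library first. Labelled *Rasa1*-KO had 377.8, 362.1 and 369.6 CPM, *Nf2*-KO had 292.6, 312.9 and 316.2 CPM, and labelled double-KO had 81.8, 239.1 and 242.7 CPM. No knockout library overlapped with control, and the lowest, labelled double-KO 1, was still above every control library. The log2 fold change against control was 3.16 (standard error, SE, 0.45, edgeR adjusted p = 0.00021) in labelled *Rasa1*-KO. It was 2.89 (SE 0.44, edgeR adjusted p = 0.00029) in *Nf2*-KO and 2.18 (SE 0.43, edgeR adjusted p = 0.012) in labelled double-KO.

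The order of the *Igfbp3* levels was labelled *Rasa1*-KO, *Nf2*-KO, labelled double-KO and control, and the libraries of neighbouring groups did not overlap. Only the last step passed the test. *Nf2*-KO differed from labelled *Rasa1*-KO by a log2 fold change of -0.27 (95% interval -1.17 to 0.63, edgeR adjusted p = 0.85) and from labelled double-KO by 0.71 (95% interval -0.19 to 1.61, edgeR adjusted p = 0.21). The wide intervals go with the spread in control and labelled double-KO, where the highest library had 3.09 and 2.97 times the CPM of the lowest, against 1.04 and 1.08 times in labelled *Rasa1*-KO and in *Nf2*-KO. Without both libraries that stood apart, the differences against control were 2.80, 2.53 and 2.18 in the same order of groups, and labelled *Rasa1*-KO and *Nf2*-KO then exceeded labelled double-KO by 0.62 (edgeR adjusted p = 1.8e-05) and 0.35 (edgeR adjusted p = 0.0011). Without the library labelled double-KO 2, the difference of labelled double-KO and control was 1.97 (edgeR adjusted p = 0.0522), and in a fit of these 2 groups alone it was 2.18 (edgeR adjusted p = 0.19). *Nf2*-KO against labelled *Rasa1*-KO was called in 1 of 14 alternative fits, with log2 fold changes between -0.66 and -0.18 over the 14.

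*Igfbp5* (Entrez gene 16011, chr1:72858065-72874865, minus strand) codes for a binding protein that attaches to matrix and, like IGFBP3, can form the ternary complex. In the RefSeq table it lies 5590 bp from *Igfbp2*. It had 11.8, 23.3 and 23.6 CPM in control. It had 0.377, 0.365 and 0.359 CPM in labelled *Rasa1*-KO, 0.318, 0.205 and 0.232 CPM in *Nf2*-KO, and 2.99, 2.48 and 3.36 CPM in labelled double-KO. Of the 7 members it had the widest range between groups. The lowest values rested on few reads, between 18 and 27 counts in *Nf2*-KO and between 28 and 30 in labelled *Rasa1*-KO, against at least 1106 in control.

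The log2 fold change of *Igfbp5* against control was -5.73 (SE 0.31, edgeR adjusted p = 2.3e-07) in labelled *Rasa1*-KO and -6.27 (SE 0.32, edgeR adjusted p = 9.6e-08) in *Nf2*-KO. In labelled double-KO it was -2.73 (SE 0.26, edgeR adjusted p = 0.00027), a loss of intermediate size. Against labelled double-KO, labelled *Rasa1*-KO was lower, at -3.00 (edgeR adjusted p = 2.6e-05), and so was *Nf2*-KO, at -3.54 (edgeR adjusted p = 5.5e-06). Between *Nf2*-KO and labelled *Rasa1*-KO the difference was -0.54 (95% interval -1.23 to 0.15, edgeR adjusted p = 0.48). Without the 2 libraries that stood apart the differences against control were -5.99, -6.53 and -3.00. With limma on log2(FPKM + 1), a pseudocount above the level of *Igfbp5* in all 3 knockout groups, the calls against labelled double-KO were lost, at -0.45 (limma adjusted p = 0.066) in labelled *Rasa1*-KO and -0.48 (limma adjusted p = 0.053) in *Nf2*-KO. Where *Igfbp5* fell, *Igfbp3* rose, and the ratio of *Igfbp3* to *Igfbp5* in FPKM (counts scaled to transcript length and library size) went from between 3.54 and 5.62 in control to between 62.8 and 222.7 in labelled double-KO, between 2249 and 2422 in labelled *Rasa1*-KO and between 2172 and 3618 in *Nf2*-KO.

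*Igfbp4* (Entrez gene 16010, chr11:99040005-99052655, plus strand) codes for a binding protein that mostly restrains IGF, is cut by the protease PAPP-A, and has also been described as a Wnt antagonist. It had 220.9, 176.4 and 142.7 CPM in control and 246.1, 252.3 and 273.8 CPM in labelled *Rasa1*-KO. It had 148.7, 146.3 and 153.1 CPM in *Nf2*-KO and 176.0, 120.1 and 112.2 CPM in labelled double-KO. Labelled *Rasa1*-KO lay above all others, while the other 3 groups overlapped in part. Against control the log2 fold change was 0.52 (SE 0.18, edgeR adjusted p = 0.038) in labelled *Rasa1*-KO, -0.27 (95% interval -0.66 to 0.12, edgeR adjusted p = 0.24) in *Nf2*-KO and -0.40 (95% interval -0.80 to -0.0093, edgeR adjusted p = 0.23) in labelled double-KO.

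Direct comparisons of *Igfbp4* separated the groups further. Labelled *Rasa1*-KO exceeded labelled double-KO by 0.92 on the log2 scale (SE 0.18, edgeR adjusted p = 0.0031), and *Nf2*-KO was below labelled *Rasa1*-KO, at -0.79 (SE 0.18, edgeR adjusted p = 0.036). *Nf2*-KO and labelled double-KO differed by 0.13 (95% interval -0.26 to 0.53, edgeR adjusted p = 0.61). The first of these held without any single library. The call of labelled *Rasa1*-KO against control was lost without control 1, control 2 or any library labelled *Rasa1*-KO, with edgeR adjusted p between 0.0711 and 0.117 and log2 fold changes between 0.37 and 0.55. The call of *Nf2*-KO against labelled *Rasa1*-KO was lost without any 1 of the 6 libraries, with edgeR adjusted p between 0.105 and 0.152 and log2 fold changes between -0.82 and -0.74. Labelled double-KO against control, in turn, came to -0.63 (edgeR adjusted p = 0.0408) without labelled double-KO 1, to -0.46 (edgeR adjusted p = 0.0058) without both libraries that stood apart, and to -0.41 (edgeR adjusted p = 0.0145) with the number in the table name as a replicate block. *Nf2*-KO against labelled double-KO was called in 2 of 15 alternative fits, with log2 fold changes between 0.012 and 0.36 over the 15.

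*Igfbp6* (Entrez gene 16012, chr15:102144186-102149512, plus strand) codes for the binding protein that prefers IGF2. It was the lowest member in control by FPKM. It had 1.08, 0.831 and 0.992 CPM in control, 2.08, 2.34 and 2.17 CPM in labelled *Rasa1*-KO, 2.15, 2.25 and 2.21 CPM in *Nf2*-KO and 1.43, 0.897 and 0.402 CPM in labelled double-KO. Labelled *Rasa1*-KO and *Nf2*-KO overlapped with each other and lay above every control and labelled double-KO library. The log2 fold change against control was 1.18 (SE 0.35, edgeR adjusted p = 0.019) in labelled *Rasa1*-KO and 1.18 (SE 0.35, edgeR adjusted p = 0.018) in *Nf2*-KO.

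Labelled double-KO differed from control in *Igfbp6* by -0.09 (95% interval -0.86 to 0.68, edgeR adjusted p = 0.92). Labelled *Rasa1*-KO exceeded labelled double-KO by 1.27 on the log2 scale (edgeR adjusted p = 0.018), and *Nf2*-KO exceeded it by 1.27 (edgeR adjusted p = 0.016). Single libraries moved these calls just past the threshold: the edgeR adjusted p against control was 0.0673 and 0.0648 without control 1, for labelled *Rasa1*-KO and *Nf2*-KO, and 0.0517 for labelled *Rasa1*-KO without its library 1. Against labelled double-KO it was 0.0522 for labelled *Rasa1*-KO without its library 1, 0.0567 without labelled double-KO 2, and 0.0523 for *Nf2*-KO without labelled double-KO 2. Counts of *Igfbp6* were between 32 and 197 per library.

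*Igfbp7* (Entrez gene 29817, chr5:77349240-77408045, minus strand) codes for a related secreted protein with low affinity for IGF. It had 453.9, 172.3 and 161.0 CPM in control and 491.3, 210.7 and 205.4 CPM in labelled double-KO. It had 150.4, 142.1 and 150.4 CPM in labelled *Rasa1*-KO and 146.1, 152.7 and 158.0 CPM in *Nf2*-KO. The high values were those of the unnumbered control library and of labelled double-KO 1, which had 2.82 and 2.39 times the lowest CPM of their groups. All control and labelled double-KO libraries lay above all libraries of the other 2 groups.

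None of the 6 comparisons of *Igfbp7* passed the test. The log2 fold change against control was -0.83 (95% interval -1.70 to 0.04, edgeR adjusted p = 0.11) in labelled *Rasa1*-KO, -0.79 (95% interval -1.66 to 0.09, edgeR adjusted p = 0.13) in *Nf2*-KO and 0.20 (95% interval -0.66 to 1.07, edgeR adjusted p = 0.82) in labelled double-KO. Without both libraries that stood apart, these were -0.17 (edgeR adjusted p = 0.042), -0.13 (edgeR adjusted p = 0.12) and 0.32 (edgeR adjusted p = 0.0084). Without the unnumbered control library alone, labelled double-KO exceeded control by 0.86 (edgeR adjusted p = 0.0428), and without labelled double-KO 1 alone it differed by -0.33 (edgeR adjusted p = 0.68). Against labelled double-KO, labelled *Rasa1*-KO was at -1.03 (edgeR adjusted p = 0.071) and *Nf2*-KO at -0.99 (edgeR adjusted p = 0.080), and without both libraries these were -0.49 (edgeR adjusted p = 8.7e-05) and -0.45 (edgeR adjusted p = 0.00016).

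**Figure D2:**
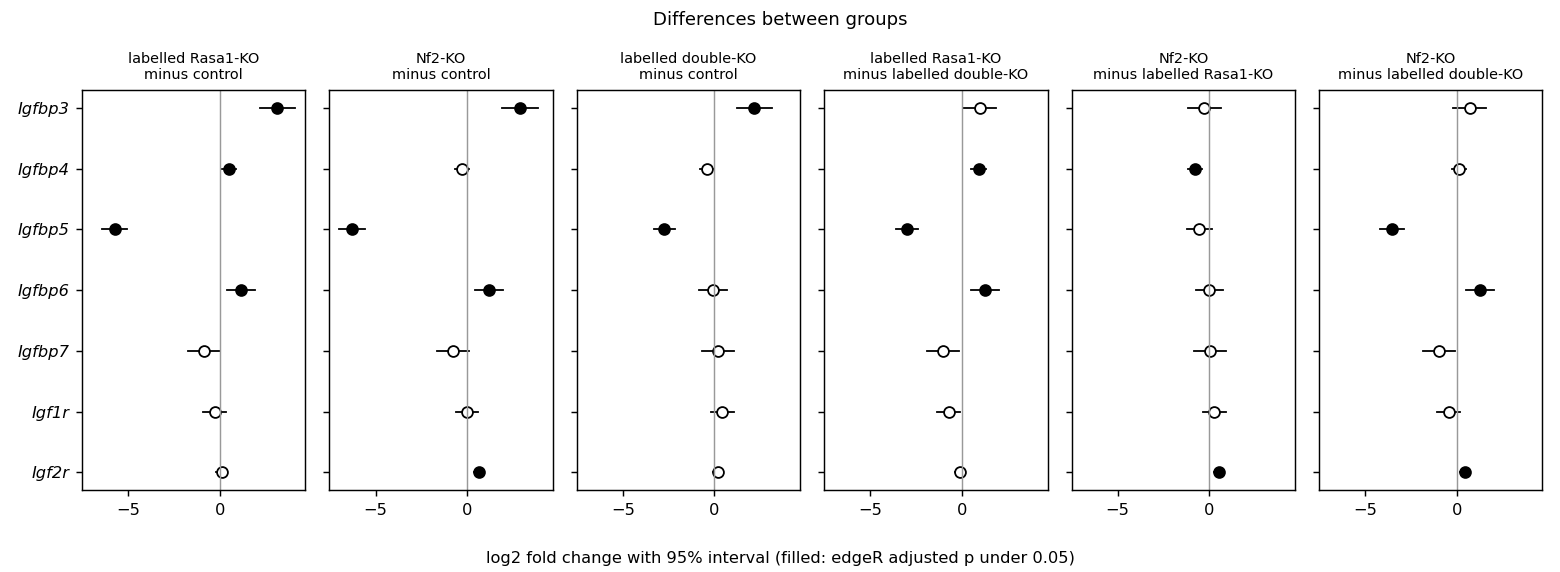
Log2 fold change of each member (points, first group minus second) with its 95% interval (bars) in the 6 comparisons, filled where the edgeR adjusted p was under 0.05. *Igfbp5* lies far to the left in every comparison of labelled *Rasa1*-KO or *Nf2*-KO with control or labelled double-KO, and *Igfbp3* to the right in the 3 comparisons with control.

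*Igf2r* (Entrez gene 16004, chr17:12682406-12769706, minus strand) was the receptor gene that passed the test. It had 125.7, 162.6 and 136.2 CPM in control, 142.4, 160.2 and 155.5 CPM in labelled *Rasa1*-KO, 217.5, 223.7 and 223.6 CPM in *Nf2*-KO and 132.7, 179.8 and 175.7 CPM in labelled double-KO. *Nf2*-KO lay above every other library, and the other groups overlapped. *Nf2*-KO exceeded control by 0.65 on the log2 scale (SE 0.13, edgeR adjusted p = 0.0021), a call that held without any single library. It exceeded labelled double-KO by 0.45 (SE 0.13, edgeR adjusted p = 0.022) and labelled *Rasa1*-KO by 0.54 (SE 0.13, edgeR adjusted p = 0.046).

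The last 2 calls were lost without single libraries. *Nf2*-KO against labelled *Rasa1*-KO had an edgeR adjusted p between 0.123 and 0.210 without any 1 of their 6 libraries. Against labelled double-KO the edgeR adjusted p was between 0.0503 and 0.0685 without *Nf2*-KO 1, 2 or 3 or labelled double-KO 1, and 0.0078 without both libraries that stood apart, with a log2 fold change of 0.32. Labelled *Rasa1*-KO differed from control in *Igf2r* by 0.11 (95% interval -0.18 to 0.40, edgeR adjusted p = 0.52), and labelled double-KO by 0.20 (95% interval -0.08 to 0.49, edgeR adjusted p = 0.41).

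*Igf1r* (Entrez gene 16001, chr7:67952257-68233668, plus strand) had 43.1, 98.5 and 116.9 CPM in control and 69.8, 82.5 and 61.3 CPM in labelled *Rasa1*-KO. It had 102.3, 85.4 and 71.2 CPM in *Nf2*-KO and 104.6, 123.9 and 119.3 CPM in labelled double-KO. The unnumbered control library was the lowest of all 12, and control overlapped with every other group. Against control the log2 fold change was -0.27 (95% interval -0.90 to 0.35, edgeR adjusted p = 0.46) in labelled *Rasa1*-KO, 0.0030 (95% interval -0.62 to 0.63, edgeR adjusted p = 0.99) in *Nf2*-KO and 0.43 (95% interval -0.20 to 1.05, edgeR adjusted p = 0.43) in labelled double-KO. Without the unnumbered control library, labelled *Rasa1*-KO was below control, at -0.59 (edgeR adjusted p = 0.0053).

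Labelled double-KO had the highest *Igf1r* mean, 115.9 ± 10.0 CPM (SD, n = 3), and labelled *Rasa1*-KO the lowest, 71.2 ± 10.7 CPM (SD, n = 3), and their libraries did not overlap. The difference was -0.70 (95% interval -1.33 to -0.08, edgeR adjusted p = 0.085), and -0.77 (edgeR adjusted p = 0.00092) without both libraries that stood apart. *Nf2*-KO against labelled double-KO was -0.43 (95% interval -1.05 to 0.20, edgeR adjusted p = 0.28) and -0.49 (edgeR adjusted p = 0.014) without them. *Igf1r* was thus not called in any comparison of all 12 libraries. The other 10 libraries alone gave a call in 3 of the 5 comparisons that use control or labelled double-KO. That choice of libraries was made after the data were seen, so these calls are not separate support.

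**Figure D3:**
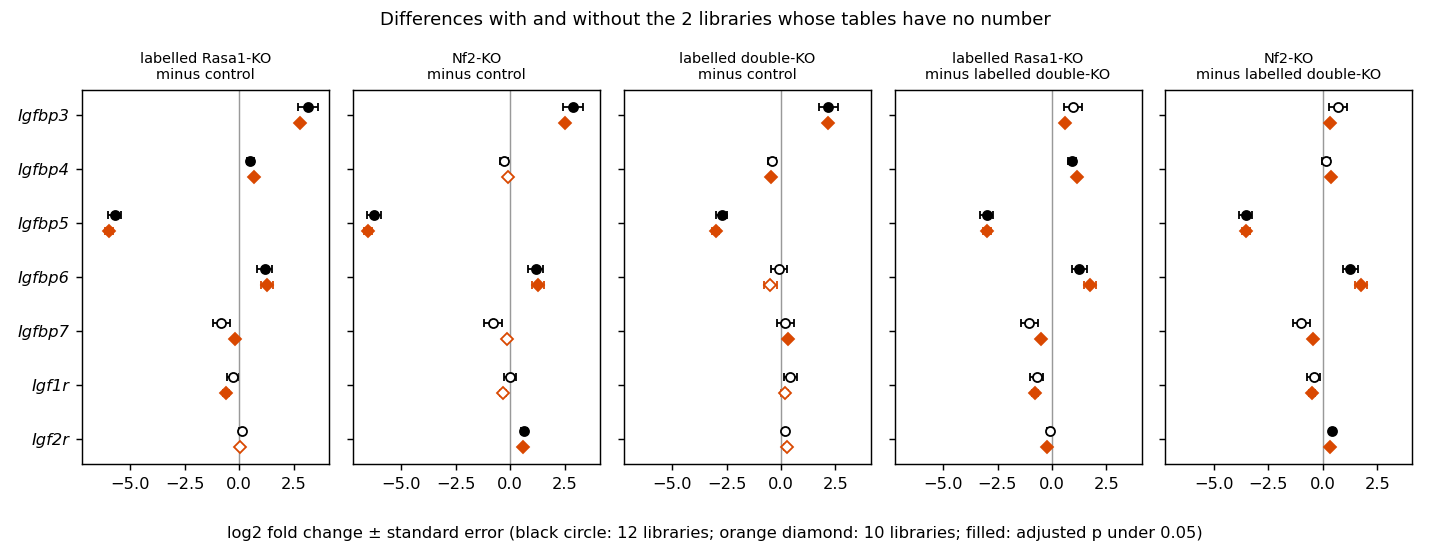
Log2 fold change ± SE of each member (first group minus second) in the 5 comparisons that use control or labelled double-KO, with all 12 libraries (black circles) and without the 2 libraries whose tables have no number (orange diamonds), filled at an edgeR adjusted p under 0.05. *Igfbp3* and *Igfbp5* keep their place against control, while *Igfbp7* against control in labelled *Rasa1*-KO moves from -0.83 to -0.17.

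Per transcript length, the most abundant member depended on the group. Levels between genes were compared in FPKM. In control the order was *Igfbp7* (219.4 ± 127.5 FPKM, SD, n = 3), *Igfbp4* (81.6 ± 13.6), *Igfbp3* (16.3 ± 8.53), *Igf2r* (15.2 ± 2.34), *Igf1r* (between 3.27 and 9.84), *Igfbp5* (3.24 ± 1.23) and *Igfbp6* (0.711 ± 0.0847). *Igfbp3* and *Igf2r* did not differ there beyond their spread. In labelled *Rasa1*-KO *Igfbp3* was first with 124.8 ± 2.51 FPKM (SD, n = 3), and in *Nf2*-KO it was second with between 106.0 and 116.9 FPKM after *Igfbp7* with 124.1 ± 4.63 FPKM (SD, n = 3). *Igfbp5* was last by mean in all 3 knockout groups, with mean FPKM of 0.0539 (labelled *Rasa1*-KO), 0.0391 (*Nf2*-KO) and 0.446 (labelled double-KO). In the library labelled double-KO 3, *Igfbp6* was lower still, with 0.286 FPKM against 0.529 for *Igfbp5*.

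Shares of binding protein mRNA differed between groups. The 5 binding proteins summed to between 239.2 and 471.4 FPKM in control and between 344.5 and 359.3 in labelled *Rasa1*-KO. The sum was between 292.2 and 311.3 in *Nf2*-KO and between 295.1 and 482.6 in labelled double-KO. Control overlapped with the other groups only through its unnumbered library. Control 1 and control 2, with 253 and 239 FPKM, lay below every knockout library. Labelled *Rasa1*-KO and *Nf2*-KO did not overlap. The share of *Igfbp3* in the sum was between 1.37% and 8.76% in control, between 35.5% and 35.9% in labelled *Rasa1*-KO, between 35.4% and 37.5% in *Nf2*-KO and between 5.76% and 28.9% in labelled double-KO. The share of *Igfbp7* was between 58.0% and 77.8% in control and between 54.8% and 78.8% in labelled double-KO, against 32.4% to 33.9% in labelled *Rasa1*-KO and 40.7% to 42.2% in *Nf2*-KO. In labelled double-KO both shares overlapped with control, while the share of *Igfbp4*, between 15.1% and 16.9%, lay below the 20.3% to 31.7% of control. *Igfbp5* was at most 1.70% of the sum in any library and *Igfbp6* at most 0.523%.

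**Figure D4:**
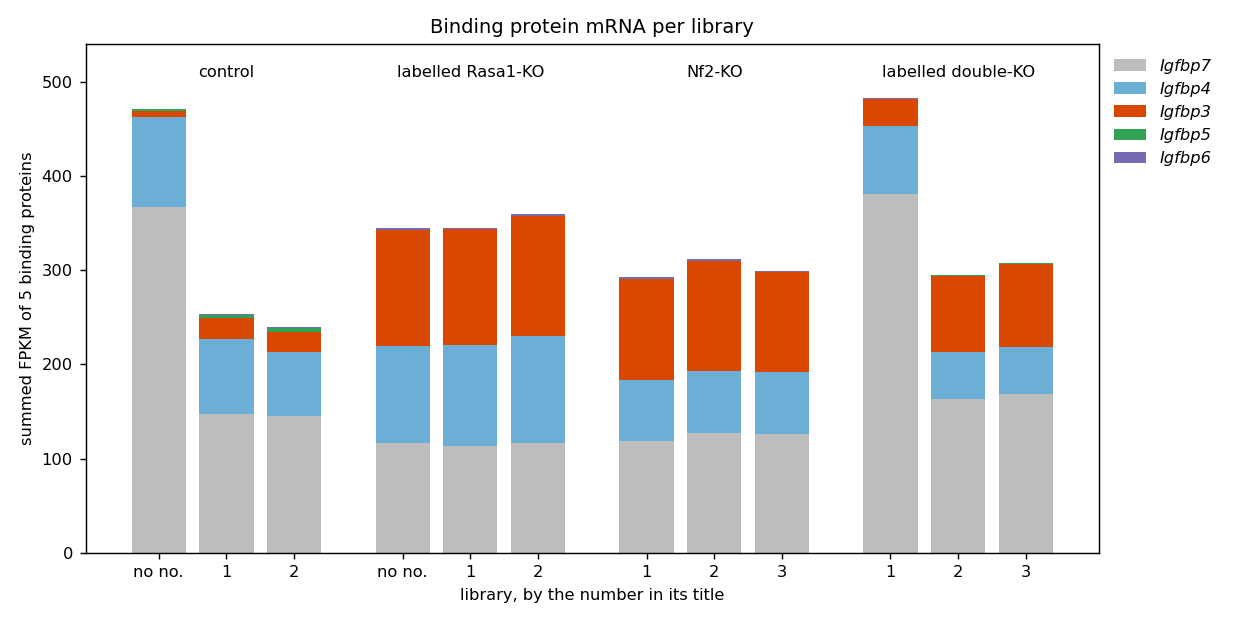
Summed FPKM of the 5 measured binding proteins in each library (stacked bars from 0), grouped by label and named by the number in the title. The *Igfbp3* part is thin in control and about as thick as those of *Igfbp4* and *Igfbp7* in labelled *Rasa1*-KO, and the 2 tallest bars, the unnumbered control library and labelled double-KO 1, are tall through *Igfbp7*.

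Of a list of 51 other genes of the IGF axis, 42 had a row and were tested. In labelled *Rasa1*-KO against control 10 were higher, 14 lower and 18 not called, so 57.1% were called beside 41.9% of all tested genes. In *Nf2*-KO 11 were higher, 11 lower and 20 not called, 52.4% beside 42.8%, and in labelled double-KO 3 were higher, 3 lower and 36 not called, 14.3% beside 6.46%. The medians over the list were -0.06, -0.11 and 0.05 on the log2 scale, beside -0.08, -0.07 and -0.04 over all tested genes. The insulin receptor gene *Insr* and its relative *Insrr* did not pass the test in any of these comparisons.

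Among the 8 genes for proteases that cut binding proteins and for their inhibitors, 3 were higher and 3 lower in labelled *Rasa1*-KO and 4 were higher and 2 lower in *Nf2*-KO, where 41.9% and 42.8% of all genes were called. *Htra1*, a secreted serine protease that cuts IGFBP5, had between 19.4 and 26.2 CPM in control, between 71.9 and 79.0 in labelled *Rasa1*-KO, between 133.6 and 139.8 in *Nf2*-KO and between 19.7 and 20.5 in labelled double-KO. Its log2 fold change was 2.62 (edgeR adjusted p = 2.8e-08) in *Nf2*-KO and 1.76 (edgeR adjusted p = 6.4e-07) in labelled *Rasa1*-KO. *Adam28*, a metalloprotease that cuts IGFBP3, fell from between 1.65 and 4.44 CPM in control to between 0.148 and 0.318 in *Nf2*-KO (log2 fold change -3.89, edgeR adjusted p = 4.1e-05) and to between 0.176 and 0.353 in labelled *Rasa1*-KO (log2 fold change -3.61, edgeR adjusted p = 8.9e-05). *Pappa*, which codes for the IGFBP4 protease PAPP-A, fell in all 3 knockout groups, with log2 fold changes of -2.01 (edgeR adjusted p = 0.00026) in labelled *Rasa1*-KO, -1.34 (edgeR adjusted p = 0.0028) in *Nf2*-KO and -1.49 (edgeR adjusted p = 0.010) in labelled double-KO. It was low throughout, with at most 4.50 CPM.

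Below the receptors, *Sh2b2*, an adaptor of the insulin receptor, rose in all 3 groups, from between 1.98 and 2.98 CPM in control to between 11.3 and 12.6 in *Nf2*-KO (log2 fold change 2.27, edgeR adjusted p = 1.2e-05). It reached between 9.39 and 12.8 CPM in labelled *Rasa1*-KO (2.24, edgeR adjusted p = 1.9e-05) and between 4.42 and 7.52 in labelled double-KO (1.37, edgeR adjusted p = 0.0040). Of the 16 genes of PI3K, AKT and FOXO, 2 were higher and 6 lower in labelled *Rasa1*-KO, 2 were higher and 3 lower in *Nf2*-KO, and 1 was higher in labelled double-KO, where 41.9%, 42.8% and 6.46% of all genes were called.

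Among the genes listed for the mannose 6-phosphate pathway that *Igf2r* shares and for other lysosomal sorting, 3 of 5 were lower in labelled *Rasa1*-KO and in *Nf2*-KO and 1 in labelled double-KO. None was higher, beside 41.9%, 42.8% and 6.46% of all genes called in either direction. *Gnptab* codes for part of the enzyme that adds the sorting tag to lysosomal proteins. It had between 162.8 and 193.9 CPM in control, between 39.1 and 46.5 in labelled *Rasa1*-KO (log2 fold change -2.04, edgeR adjusted p = 8.7e-07), between 36.9 and 42.6 in *Nf2*-KO (-2.14, edgeR adjusted p = 4.0e-07) and between 98.7 and 132.7 in labelled double-KO (-0.67, edgeR adjusted p = 0.011). *Igf2r* itself lay above control in *Nf2*-KO, where *Gnptab* lay below it. *Igf2bp3*, an RNA-binding protein named for *Igf2* mRNA, was lower in labelled double-KO, at -0.87 (edgeR adjusted p = 0.037).

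Genes with the most similar pattern were sought for each member among 13591 other genes with a mean of at least 1 CPM, by Pearson correlation of log2 CPM over the 12 libraries. These are descriptions over libraries that share groups and depth, without a test. *Igfbp3* was most like *Sgcd* (r = 0.986), *Impdh1* (0.984) and *Mmp10* (0.984), and *Igfbp5* most like *Vwa7* (0.992), *Dgkz* (0.992) and *Scara3* (0.987). *Scara3*, a scavenger receptor of much higher level, had a mean of 186.8 CPM in control, 109.1 in labelled double-KO, 58.2 in labelled *Rasa1*-KO and 41.1 in *Nf2*-KO. *Igfbp4* was nearest to *Gmds* (0.948), *Ctsb* (0.939), the gene of the lysosomal protease cathepsin B, and *Smim14* (0.934). *Igfbp6* was nearest to *Prokr1* (0.971), *March3* (0.952) and *Pacc1* (0.949), and *Igfbp7* to *Nr2f6* (0.983), *Hdhd3* (0.973) and *Cxcl15* (0.967). *Igf1r* was nearest to *Tjp1* (0.986), the gene of the tight junction protein ZO-1, *Peak1* (0.982) and *Map3k1* (0.98), and *Igf2r* to *Odf2* (0.963), *Slc25a12* (0.961) and *Medag* (0.940). Between members, the correlation was lowest for *Igfbp3* with *Igfbp5* (-0.86) and highest for *Igfbp3* with *Igf2r* (0.62), and it was 0.01 for *Igfbp3* with *Igfbp4*.

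Summed markers of other cell types differed between groups, but the genes of a list did not all move alike. The 5 measured of 6 fibroblast markers summed to between 35.2 and 118.6 CPM in control, between 181.9 and 227.6 in labelled *Rasa1*-KO, between 656.5 and 757.3 in *Nf2*-KO and between 20.4 and 29.7 in labelled double-KO. *Col1a1* had between 311.8 and 412.7 CPM in *Nf2*-KO and between 1.13 and 20.2 in control, while *Dcn*, also a fibroblast marker, had its highest mean in control, 60.8 CPM. The 5 measured of 6 epithelial markers summed to between 3143 and 6073 CPM in control, between 7048 and 7415 in labelled *Rasa1*-KO, between 4807 and 5358 in *Nf2*-KO and between 5912 and 6842 in labelled double-KO. The 3 measured of 5 immune markers summed to between 6.60 and 10.2 CPM in control, between 21.4 and 23.9 in labelled *Rasa1*-KO, between 16.6 and 18.3 in *Nf2*-KO and between 8.16 and 18.2 in labelled double-KO, and *Ptprc*, the pan-leukocyte marker, did not pass 0.572 CPM. The 2 measured of 5 endothelial markers summed to at most 1.53 CPM in any library. *Pecam1* had its highest mean in control (0.684 CPM) and *Kdr* in labelled *Rasa1*-KO (0.943 CPM). The part of these markers in the differences of *Igfbp3*, *Igfbp5*, *Igfbp6* and *Igf2r* was not tested, and in bulk RNA fewer cells of a type and less RNA per cell cannot be told apart.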

How the data were processed

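RNA of 12 libraries of S1 tumorspheres, prepared with a stranded kit for total RNA, was compared. According to the submitters' processing notes, reads were trimmed (Trimmomatic 0.38), mapped on mm10 (HISAT2 2.1.0) and assigned to genes (StringTie 2.1.3b). The authors deposited raw read counts per gene and FPKM, which divide by transcript length and mapped reads. TPM in the same tables was not used. Groups were taken from the labels.

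The counts went into edgeR 4.0.16 under R 4.3.3. After filterByExpr, which kept 18053 genes, and TMM normalization, all 6 comparisons came from 1 quasi-likelihood fit of the 4 groups. Genes were called at a Benjamini-Hochberg adjusted p under 0.05 over all 18053 genes. CPM used the TMM library sizes, and log2 CPM a prior count of 2. Depth was between 43818139 and 96674463 counts. Alternatives were RLE size factors, no filter, DESeq2 1.42.0, limma 3.58.1 on log2(FPKM + 1) or log2(FPKM + 0.1), only the groups compared, replicate blocks, each library left out, exchanged labels, and a call at 3-fold or more with a raw p under 0.05. The block by table name and leaving out both libraries that stood apart were chosen after seeing the data. Gene positions and promoters are from RefSeq tables of GRCm38.p6, which held all 8 listed genes. Named are the members, the targeted genes, the 3 genes of the IGF axis list with the largest called change in each comparison with control, and the 3 genes most like each member. *Krt8* and other markers are from the marker lists, and *Insr* and *Insrr* were named after their values were seen. The members and lists were chosen with earlier results of these data known. Member proteins were not analysed here. A two-sided exact permutation test of 3 libraries against 3 cannot go below p = 0.1, so none was used.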

Additional observations from a re-analysis of the deposited data

How the results depend on the processing

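The member calls were compared over 14 or 15 alternatives each. Of the 18 member differences past the threshold, 7 kept direction and call under every alternative run, and the other 11 kept their direction but lost the call under at least 1, in 40 of 268 refits. With the title number as a replicate block, calls were lost for *Igfbp3* in labelled double-KO against control (1.84, edgeR adjusted p = 0.0677), for *Igfbp6* in labelled *Rasa1*-KO against labelled double-KO (1.13, edgeR adjusted p = 0.0629) and for *Igfbp4* (-0.67, edgeR adjusted p = 0.16) and *Igf2r* (0.44, edgeR adjusted p = 0.22) in *Nf2*-KO against labelled *Rasa1*-KO. The *Igfbp4* call in labelled *Rasa1*-KO against control was also lost in the fit of only these groups, without the filter and with limma on FPKM, with adjusted p between 0.0504 and 0.0821, and that in *Nf2*-KO against labelled *Rasa1*-KO without the filter (edgeR adjusted p = 0.0538). Of the 24 below the threshold, 33 of 355 refits brought a call and 19 turned the sign. With the number in the table name as a replicate block, *Igf2r* in labelled *Rasa1*-KO against control was -0.0066 and *Igf1r* in *Nf2*-KO against control -0.0381. With the title number as a replicate block, *Igf1r* in *Nf2*-KO against control was -0.0803, *Igfbp6* in labelled double-KO against control 0.0493 and *Igf2r* in labelled *Rasa1*-KO against labelled double-KO 0.0100. Of log2 FPKM by limma, *Igf2r* in labelled *Rasa1*-KO against control was -0.0068 with a pseudocount of 1 and -0.0067 with 0.1. *Igf1r* in *Nf2*-KO against control was -0.0370 in the fit of only these groups and -0.32 without both libraries that stood apart, and *Igfbp6* in *Nf2*-KO against labelled *Rasa1*-KO was -0.0045 without the filter. Leaving out 1 library gave between -0.32 and 0.27 for *Igf1r* in *Nf2*-KO, between -0.58 and 0.28 for *Igfbp6* and between -0.33 and 0.86 for *Igfbp7* in labelled double-KO, each against control, and between -0.0326 and 0.0506 for *Igfbp6* in *Nf2*-KO against labelled *Rasa1*-KO. With log2(FPKM + 1), *Igfbp5* was at -1.96 in labelled *Rasa1*-KO against control, since the pseudocount is far above its level there.

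The number of all genes called also depended on the fit and on the rule for a call. In the order labelled *Rasa1*-KO, *Nf2*-KO and labelled double-KO against control, then labelled *Rasa1*-KO against labelled double-KO, *Nf2*-KO against labelled *Rasa1*-KO and *Nf2*-KO against labelled double-KO, it was 7569, 7721, 1166, 5464, 661 and 5820. A fold change of at least 3 with a raw p under 0.05 gave 1673, 2055, 367, 1021, 232 and 1389. Exchanging the labels only renames the 2 groups and fits nothing anew. The counts of the first and the third comparison then became 1166 and 7569, and those of the last 2 became 5820 and 661. Only the groups compared gave 4532, 5130, 18, 8306 and 4527 in the first 5. Without both libraries that stood apart there were 11969, 12170, 5433, 9135 and 9199, leaving out *Nf2*-KO against labelled *Rasa1*-KO. DESeq2 gave 2094 for labelled double-KO against control and 1419 for *Nf2*-KO against labelled *Rasa1*-KO. For the same 2 comparisons the title number as a replicate block gave 501 and 227, and the number in the table name as a block 2501 and 1563. Leaving out 1 library gave between 5583 and 10993 in labelled *Rasa1*-KO, between 5831 and 11197 in *Nf2*-KO and between 487 and 5477 in labelled double-KO, each against control, with the highest count each time without the unnumbered control library. It gave between 3571 and 4616 for labelled *Rasa1*-KO against labelled double-KO, between 210 and 271 for *Nf2*-KO against labelled *Rasa1*-KO and between 4106 and 4908 for *Nf2*-KO against labelled double-KO. Deviations from the group mean of libraries with the same title number correlated at between -0.38 and 0.40, with 4 of 14 pairs over 0.1, so the title numbers were not read as pairs. By table name the 3 pairs of control and labelled double-KO had between 0.31 and 0.63.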
